A study of Mus musculus with 7 samples.

Results

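The genes described here were 10 genes of TGF-β, BMP and AMH signaling, namely Tgfbr1, Tgfbr2, Tgfbr3, Bmpr1a, Bmpr1b, Bmpr2, Amh, Amhr2, Smad3 and Smad4. They were 10 of the 21755 protein-coding genes of the mouse annotation (GENCODE, assembly GRCm38), and each was taken with its gene body and 50 kb on each side. Within these loci, which together spanned 2064 kb, 21 of the 4842 sites of the genome were found. A site was a 200-bp window in which the ERβ chromatin immunoprecipitation (ChIP) signal exceeded the averaged inputs more than 4-fold in at least 2 of 3 replicates. The fold over input therefore chose the sites, and it is given below as a description with no test.

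Members of the TGF-β family are secreted ligands that bring together type I and type II receptor kinases at the cell surface, and the activated type I receptor phosphorylates Smad proteins, which enter the nucleus with the shared partner Smad4. In the ovary, granulosa cells of growing follicles secrete anti-Müllerian hormone (Amh), which restrains the recruitment of primordial follicles, and BMPs, activins and inhibins act between the oocyte, granulosa and theca cells. ERβ (Esr2) is a nuclear receptor of granulosa cells that binds DNA at estrogen response elements (EREs), in which a pair of GGTCA half-sites face each other with 3 bases between them.

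The study asked where endogenous ERβ binds chromatin in the intact ovary. Chromatin of C57BL/6J ovaries that express ERβ was immunoprecipitated with the monoclonal antibody PPZ0506 in 3 replicates and compared with 2 inputs, that is, chromatin of the same tissue sequenced without the antibody step. Per the methods of the study, each replicate pooled the ovaries of several mice of a range of ages, with no selection by estrous stage. The 2 ERβ ChIP samples of knockout ovaries were not analysed here, so the inputs were the only control. Signal came from whole ovary, where a site in few cells and a weakly bound site in many cells cannot be told apart, and ChIP tracks hold no expression against which the labelled tissue could be checked. The 5 libraries had been scaled to a common total, with genome mean signals of 0.362 to 0.370, and their depth is unknown from the files.

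The sequences below, on the plus strand of GRCm38 and written 5′ to 3′, are shown because they hold the closest ERE matches at sites of these genes, or lie at the strongest site. In the first 4, capitals mark an ERE that departs from the consensus in no more than 1 of the 10 fixed bases. They are Amh site 2 (chr10:80787571-80787770, within Dot1l), Bmpr1a site 1 (chr14:34421191-34421390), Smad3 site 2 (chr9:63679191-63679390) and Tgfbr3 site 2 (chr5:107238141-107238340). In the fifth, Bmpr1b site 1 (chr3:141893421-141893620), which had the highest fold of all 21 sites, capitals mark an ERE with 2 mismatches.
Amh site 2: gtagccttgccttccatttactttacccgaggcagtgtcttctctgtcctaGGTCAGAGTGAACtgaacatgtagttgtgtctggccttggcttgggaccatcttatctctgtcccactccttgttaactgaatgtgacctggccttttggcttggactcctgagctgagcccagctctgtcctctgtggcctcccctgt
Bmpr1a site 1: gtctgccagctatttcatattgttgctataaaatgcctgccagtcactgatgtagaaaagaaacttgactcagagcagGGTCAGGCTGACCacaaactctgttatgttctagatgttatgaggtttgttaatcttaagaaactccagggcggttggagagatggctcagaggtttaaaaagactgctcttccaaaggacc
Smad3 site 2: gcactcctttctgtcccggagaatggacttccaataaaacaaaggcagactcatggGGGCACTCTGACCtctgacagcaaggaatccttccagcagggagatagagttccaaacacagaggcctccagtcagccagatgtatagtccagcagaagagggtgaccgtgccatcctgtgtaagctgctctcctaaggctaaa
Tgfbr3 site 2: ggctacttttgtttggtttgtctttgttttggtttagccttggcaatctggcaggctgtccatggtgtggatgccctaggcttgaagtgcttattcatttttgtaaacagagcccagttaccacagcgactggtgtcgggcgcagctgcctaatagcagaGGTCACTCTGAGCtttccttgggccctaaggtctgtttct
Bmpr1b site 1: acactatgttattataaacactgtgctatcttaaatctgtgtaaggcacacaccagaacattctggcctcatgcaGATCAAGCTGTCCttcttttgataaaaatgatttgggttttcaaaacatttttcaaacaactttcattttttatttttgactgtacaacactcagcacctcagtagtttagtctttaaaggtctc

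Sites lay near 7 of the 10 genes. Tgfbr3 and Bmpr2 each had 5, Smad3 had 4, Amh had 3, Bmpr1b had 2, and Tgfbr1 and Bmpr1a each had 1, whereas Tgfbr2, Amhr2 and Smad4 had none. Several of these counts moved when 1 library was left out. Tgfbr3 had 3 sites without ChIP replicate 2 and 3 without ChIP replicate 3, and Bmpr2 had 3 without ChIP replicate 3. Without Input replicate 1, Bmpr1b had 4 and Tgfbr1 had 2. Under the same rule, 27.5% of all protein-coding genes had a site. Long loci hold more sites, so the share was also read by length. Of the 4 genes with a locus over 200 kb, all 4 had a site (background 42.9%), and of the 6 with a shorter locus, 3 had one (background 25.5%). Counting the gene body alone, 6 genes had a site, against 8.83% of protein-coding genes. These were all 4 with a locus over 200 kb (background 32.6%) and 2 of the 6 with a shorter one (background 5.75%). The gene bodies held 14 of the 21 sites, and for 11 sites the nearest coding gene start was that of the gene itself. The nearest start was that of Aagab for Smad3 sites 1 to 3 and of Fam117b for Bmpr2 sites 1 to 3. It was that of Mmrn2 for Bmpr1a site 1, Cdc7 for Tgfbr3 site 1, Sf3a2 for Amh site 2 and Jsrp1 for Amh site 3. By annotation, 11 sites were intronic, 4 were intergenic and 2 were in promoters, while the others were in a coding exon, a UTR, a non-coding exon and just past a transcript end. Of the 21 sites, 15 passed in all 3 replicates, a share of 71.4% beside 65.9% for all sites of the genome. The median of the mean folds was 6.48, close to the 6.23 of all sites.

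**Figure D1:**
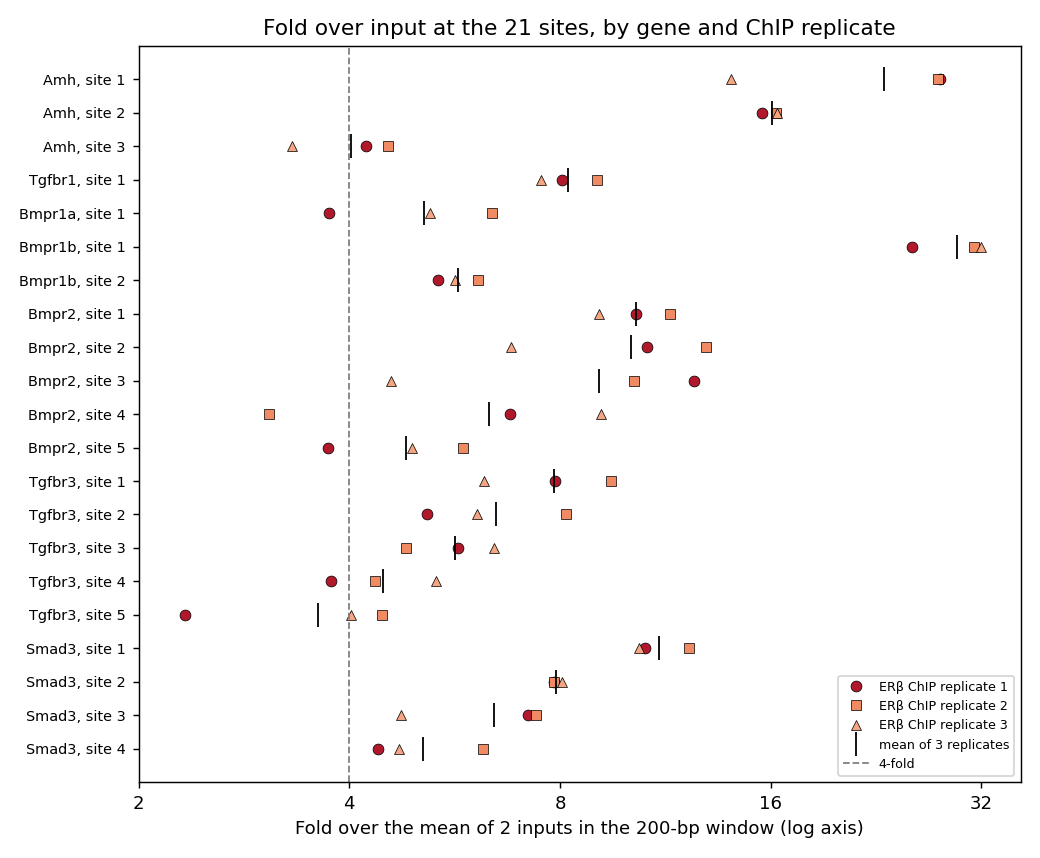
Fold over the mean of 2 inputs (log axis) at each of the 21 sites, ordered by the role of the gene and then by mean fold; points are the 3 ERβ ChIP replicates, the black bar is their mean and the dashed line marks 4-fold. Bmpr1b site 1 (mean 29.5), Amh site 1 (23.2) and Amh site 2 (16.1) stand to the right of the other 18 sites, none of which exceeds a mean of 11.1.

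Amh, the ligand of the group, had strong ERβ signal directly at its promoter. Amh site 1 was centered 0.253 kb upstream of the gene start. ChIP replicates 1, 2 and 3 had signal of 12.9, 12.9 and 6.51 there, against 0.404 and 0.523 for Input replicates 1 and 2. At a site that passed in all replicates, ChIP signal above both inputs follows from the rule. Replicate 3 was the lowest of the ChIP replicates. The folds of 27.9, 27.8 and 14.0 averaged 23.2 ± 7.96 (SD, n = 3), rank 153 of the 4842 sites. The passing windows reached across the gene start. The closest ERE at this site had 4 mismatches in the 10 fixed bases, and the site held 1 GGTCA half-site.

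Amh site 2 lay 17.6 kb upstream of Amh, in intron 22 of 27 of Dot1l, a histone methyltransferase gene, and the nearest coding start was that of Sf3a2. ChIP signal there was 8.76, 9.17 and 9.22 by replicate, against 0.690 and 0.438 for input. The replicates were nearly equal there, with a mean fold of 16.1 ± 0.446 (SD, n = 3). Amh site 3, 5.03 kb downstream of the Amh start and just past a transcript end of Jsrp1, was at the edge of the rule, with folds of 4.22, 4.55 and 3.31. The Amh locus held 9 coding genes, so a site in it is near Amh but not assigned to it by these data.

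**Figure D2:**
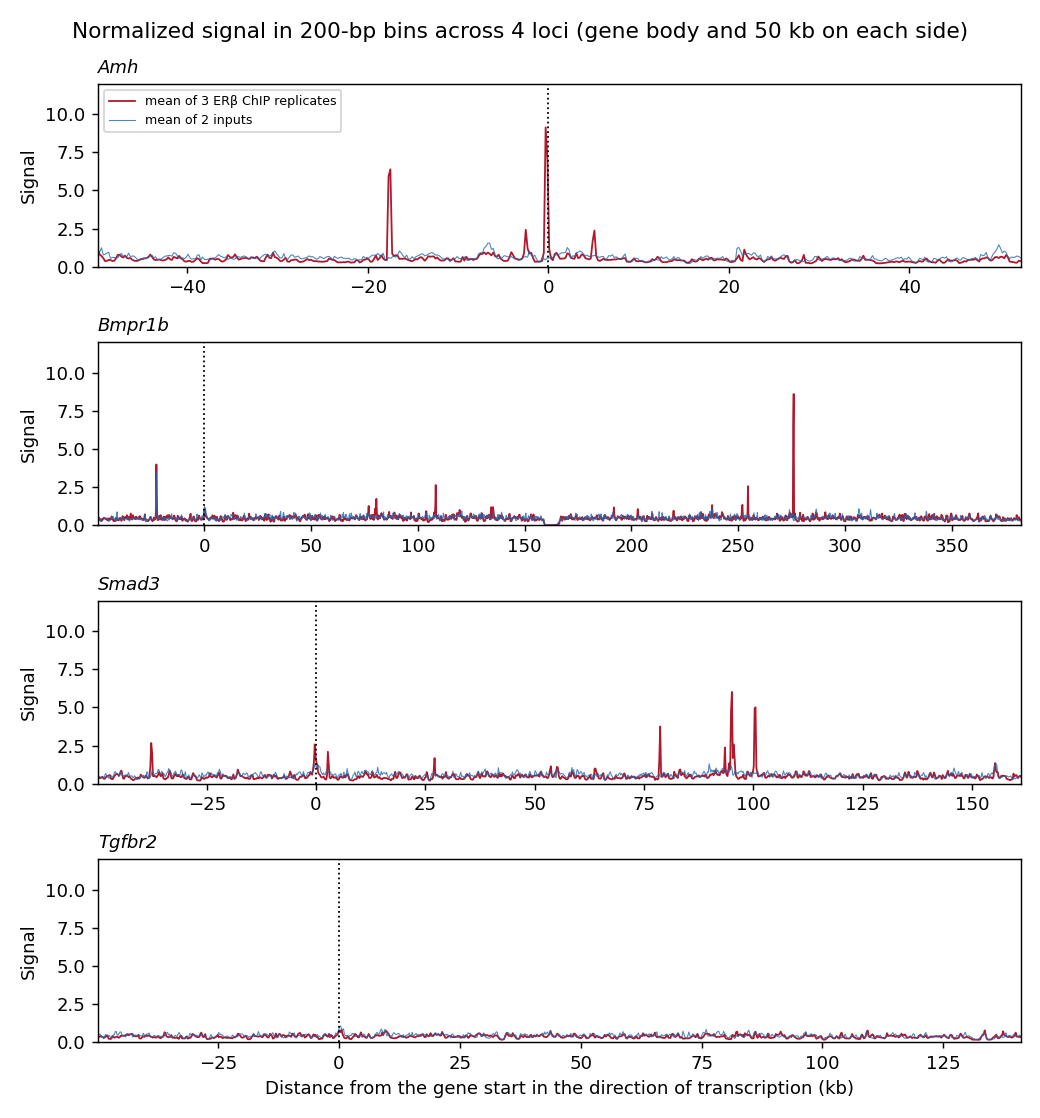
Normalized signal in 200-bp bins against the distance from the gene start (kb, in the direction of transcription; dotted line at the start) for Amh, Bmpr1b, Smad3 and Tgfbr2; red is the mean of 3 ERβ ChIP replicates and blue the mean of 2 inputs. Amh has its highest peak at the start, Bmpr1b far inside the gene at 275.9 kb and Smad3 between 78.7 and 100.4 kb, while Tgfbr2 has no window over the threshold. A spike upstream of Bmpr1b is present in the inputs too.

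Among the type I receptors, Bmpr1b, a BMP receptor kinase known for its role in ovulation rate, had the highest fold of all. Bmpr1b site 1 was in intron 2 of 11, 275.9 kb downstream of the gene start. The ChIP replicates read 9.36, 11.5 and 11.8, against 0.319 and 0.320 for input. The inputs were below their genome mean, so by the rule that mean was the denominator of the fold. The mean fold was 29.5 ± 3.57 (SD, n = 3), rank 58 of 4842. It was 34.1 when the lower limit on the input was 0.5 of the genome mean. Bmpr1b site 2, in the same intron 254.6 kb from the start, had folds of 5.36, 6.11 and 5.67.

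Bmpr1a, the other BMP type I receptor here, had 1 weak site in intron 10 of 12. By replicate, ChIP signal reached 1.59, 2.71 and 2.22, against input of 0.328 and 0.520. Replicate 1 was below the threshold, with folds of 3.75, 6.39 and 5.22. This was the only site of the 21 with a perfect ERE (0 mismatches), and 82.5% of its bases were in annotated repeats. It was no longer called when ChIP replicate 2 or 3 was left out. Tgfbr1, the type I receptor of TGF-β, had 1 site in intron 1 of 8, 29.4 kb downstream of the start (chr4:47382531-47382730). ChIP signal there was 3.81, 4.27 and 3.55 by replicate, against 0.595 and 0.350 for input. The replicates lay close together, with a mean fold of 8.21 ± 0.770 (SD, n = 3).

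Among the type II receptors, only Bmpr2, the receptor of BMP ligands, had sites. Of its 5 sites, 3 were clustered at the far end of the gene. Bmpr2 site 1 was in a coding exon 107.0 kb from the start (chr1:59870301-59870500), where ChIP signal by replicate was 6.11, 6.84 and 5.40 and input was 0.700 and 0.490. Bmpr2 site 2 was in a UTR 115.0 kb from the start, with folds of 10.6, 12.9 and 6.80. Bmpr2 site 3 was intergenic, 118.2 kb from the start and past the gene end, with folds of 12.4, 10.2 and 4.60. All replicates passed at these 3 sites, and replicate 3 was the lowest at each. The other 2 were less even between replicates. Bmpr2 site 4, in an exon of the non-coding gene Gm38125 within the Bmpr2 body, had folds of 6.79, 3.08 and 9.16, and Bmpr2 site 5, 10.8 kb upstream of the start, had folds of 3.73, 5.81 and 4.91.

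Tgfbr2, the type II receptor of TGF-β, and Amhr2, the receptor of Amh, had no site. In the window of the Tgfbr2 locus with the highest second fold, the folds were 0.489, 2.36 and 2.32, and in that of the Amhr2 locus they were 1.43, 2.25 and 2.24. These windows had signal of at most 0.869 and 0.924 in any ChIP replicate, respectively.

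Tgfbr3 (betaglycan), a co-receptor that presents TGF-β and binds inhibin, had 5 sites of moderate fold. The strongest, Tgfbr3 site 1 (chr5:107087471-107087670), was intergenic, past the gene end and 202.1 kb from the start. By replicate, ChIP signal reached 8.43, 10.1 and 6.69, against input of 1.60 and 0.550, so the inputs differed from each other more than at most sites. Its mean fold was 7.85 with both inputs and 15.3 without Input replicate 1. Tgfbr3 site 2, in intron 2 of 16, had folds of 5.17, 8.17 and 6.09. Tgfbr3 site 3, at the start of an internal transcript 97.0 kb into the gene, had folds of 5.71, 4.82 and 6.43. The other 2 sites were intronic and missed the threshold in replicate 1, with folds there of 3.76 at site 4 and 2.33 at site 5.

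Smad3, which carries the TGF-β and activin signal to the nucleus, had 4 sites, each of which passed in all 3 replicates. Smad3 site 1 was in intron 5 of 8 (chr9:63657461-63657660). The ChIP replicates read 6.28, 7.28 and 6.17, against 0.558 and 0.631 for input. The mean fold was 11.1 ± 1.03 (SD, n = 3). Smad3 site 3 was in the same intron, with folds of 7.21, 7.38 and 4.74, and with input signal of 1.30 and 1.04 the background there was the highest among the 4 sites. Smad3 site 2, in intron 1, was the most even of all sites between replicates, with folds of 7.84, 7.83 and 8.04. Smad3 site 4 was intergenic, 37.6 kb upstream of the start, with folds of 4.39, 6.20 and 4.71. Smad4, the partner shared by all receptor-activated Smads, had no site, but its best window came near the threshold, with folds of 4.54, 3.77 and 2.48. Without Input replicate 1, Smad4 was among 8 genes with a site.

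At the threshold itself, Tgfbr3 site 5 was the last to pass, with a second-highest fold of 4.03. The nearest windows to miss it were 1 in the Bmpr2 locus, with folds of 4.66, 3.47 and 3.86, and 1 in the Bmpr1b locus, with folds of 5.15, 3.79 and 3.56. In a like call, with either input over the other at 4-fold, the 10 loci held 0 regions and the genome 256. This call took 1 library over 1 library, so it differed from the rule for ChIP. With so few regions in the genome, a count of 0 in loci of this total length says little. The track names placed ChIP replicate 1 and Input replicate 1 apart from the other 3 libraries. With each ChIP replicate read over the input of its own track-name group, 20 of the 21 sites kept over 4-fold in at least 2 replicates, and Tgfbr3 site 5 did not.

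The signal around the sites formed a narrow peak. Each site was centered on its window of highest mean fold, so a central ChIP peak follows from the choice of sites. Averaged over the 21 sites, ChIP signal at the center was 5.63, 6.24 and 5.03 in replicates 1, 2 and 3, and input signal was 0.704 and 0.540. Measured midway between flank and summit, the ChIP peak was 250 bp wide, beside 200 bp over all sites of the genome. The bins were 50 bp wide, so this difference is at the limit of the resolution. Outside 1500 bp from the center, the ChIP mean was 0.512 and the input mean 0.620. Away from the sites the ChIP signal was thus no higher than input. Over the whole loci the ChIP mean lay below the input mean for all 10 genes, as it did for 75.1% of protein-coding loci.

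**Figure D3:**
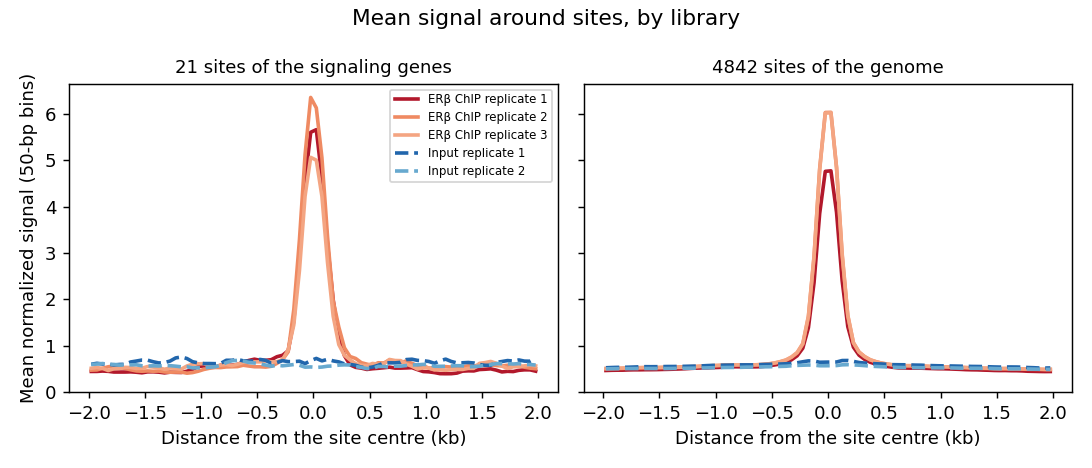
Mean normalized signal in 50-bp bins against the distance from the site center (kb), for the 21 sites of the signaling genes (left) and all 4842 sites (right), by library. The 3 ChIP replicates peak between 5.03 and 6.24 at the center of the 21 sites, and both inputs stay flat at 0.704 and 0.540.

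To read the fold in a replicate that had not chosen the sites, sites were called in 2 ChIP replicates, both of which had to pass, and the third was read. Held-out replicate 1 had a median fold of 7.77 over 19 sites of these genes, replicate 2 of 9.25 over 16 and replicate 3 of 6.55 over 16. Over all such sites of the genome, the medians were 5.71, 7.94 and 7.52. The lowest held-out fold at a site of these genes was 2.33. In held-out replicates 1, 2 and 3, 15 of 19, 15 of 16 and 15 of 16 sites exceeded 4-fold (78.9%, 93.8% and 93.8%), beside 74.5%, 93.4% and 87.8% over all such sites, so the shares were close to those of the genome. Both inputs took part in the calls and in the reading, so the held-out fold is independent of the call on the ChIP side only.

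A test across the whole genome, which did not use the sites, compared 3 ChIP replicates with 2 inputs in windows of 1 kb (limma on log2(signal + 0.5), Benjamini-Hochberg adjustment over all windows). In the 10 loci, 13 of 2044 windows were higher in ChIP at an adjusted p under 0.05, a share to be read against 0.0957% of all windows. Of these, 3 were in each of the loci of Bmpr2, Smad3 and Amh, 2 were in that of Tgfbr3, and 1 was in each of those of Bmpr1b and Tgfbr1. The center of a site lay in 12 of the 13, and the last adjoined Amh site 1. These windows rest on the same libraries as the sites and are not a second line of evidence. No window was lower at an adjusted p under 0.05 (limma, 0.00267% of all windows). At an unadjusted p under 0.05 (limma), 158 of the 2044 windows were lower, against a background of 3.33%. At that limit, 34 of the 2044 were higher, against 46252 of the 2430628 windows of the genome. The share lower was thus above that of the genome, and the share higher slightly below it.

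Bmpr1b had the largest difference, of 2.16 ± 0.21 (SE) on the log2(signal + 0.5) scale, with a limma adjusted p of 2.76e-08 in the window of site 1. Signal averaged over that 1 kb was 2.85, 3.76 and 3.58 by ChIP replicate, against 0.344 and 0.390 for input. For Amh, the window of site 2 differed by 1.68 ± 0.20 (SE; limma adjusted p = 2.66e-06), and the 2 adjoining windows over the promoter and the gene start differed by 1.22 ± 0.19 and 1.40 ± 0.21 (SE; limma adjusted p = 0.000379 and 9.95e-05). In the window of Tgfbr1 the ChIP replicates reached 1.57, 1.54 and 1.28 and the inputs 0.609 and 0.466, a difference of 0.92 ± 0.18 (SE; limma adjusted p = 0.0105). This call and that of Tgfbr3 site 2 were lost when ChIP replicate 2 or either input was left out. Those of Tgfbr3 site 1 and Bmpr2 site 2 were lost when ChIP replicate 2 or Input replicate 2 was left out. The weakest call was that of Smad3 site 2, with 0.84 ± 0.17 (SE; limma adjusted p = 0.0259), and it was lost when ChIP replicate 1 or 2 or either input was left out. In Bmpr1a, Tgfbr2, Amhr2 and Smad4 no window passed. The p-values come from limma, which moderates the variance of each window with that of all windows. They therefore do not measure the spread between these libraries alone.

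Promoters were tested in the same way, since their positions come from the annotation and not from signal. Of the 10 promoters, that of Amh alone was higher in ChIP at an adjusted p under 0.05 (limma), as were 0.076% of all promoters tested. Signal from 1 kb upstream to 100 bp downstream of the Amh start was 3.89, 4.01 and 2.19 in ChIP replicates 1, 2 and 3, against 0.524 and 0.466 for input. Every ChIP replicate was above both inputs, an order whose share over all promoters is not given here. The difference was 1.92 ± 0.37 (SE) on the log2(signal + 0.5) scale, with a limma adjusted p of 0.00312. In the other settings that were tried it ranged from 1.52 to 2.50, but the call held in 5 of 12 of them. It was lost when ChIP replicate 2 or either input was left out and when the track-name group was a term. No promoter was lower at an adjusted p under 0.05 (limma; 0.0237% of all promoters), and 0 of the 10 were lower at an unadjusted p under 0.05, against 11.0% of all promoters.

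At the other 9 promoters, ChIP signal ran from 0.286 to 1.91 and input signal from 0.477 to 0.994, with limma adjusted p from 0.633 to 0.956. Smad3 had the highest of these, with 0.820, 1.50 and 1.91 by ChIP replicate, against 0.989 and 0.977 for input. Replicate 1 fell below the inputs and the others above, so the groups overlapped. At the Amhr2 promoter the ChIP replicates had 0.502, 0.795 and 0.666 and the inputs 0.964 and 0.599, and the groups overlapped there as well. The Bmpr1a promoter had 0.536, 0.584 and 0.547 by ChIP replicate, against 0.718 and 0.700 for input. This difference, -0.1965 on the log2(signal + 0.5) scale, did not pass the test. The median over all promoters was also below zero, at -0.1324.

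**Figure D4:**
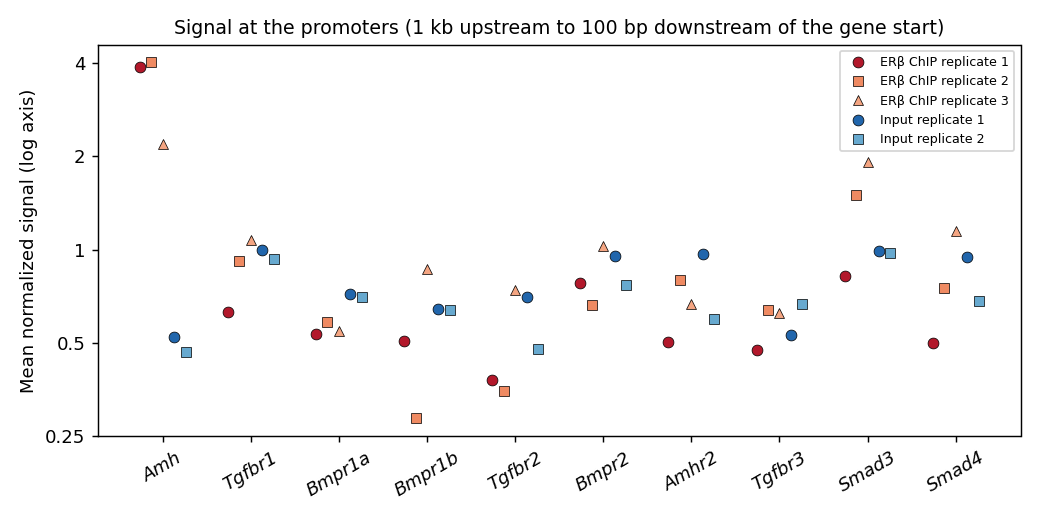
Mean normalized signal (log axis) from 1 kb upstream to 100 bp downstream of the start of each of the 10 genes; red symbols are the 3 ERβ ChIP replicates and blue symbols the 2 inputs. At Amh the 3 ChIP replicates read 2.19 to 4.01 and the inputs 0.466 and 0.524.

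The 21 sites were then searched for EREs on both strands. An ERE with up to 2 of the 10 fixed bases changed was present in 10 of the 21 sites (47.6%). The share was 68.1% for all sites and 6.68% for all 200-bp windows of the genome. With at most 1 mismatch, an ERE was present in the 4 sites printed above (19.0%), beside 33.0% of all sites and 0.529% of windows. The 21 sites come from few loci, so these shares are given with no test. The ERE matches of the 10 sites had a median distance of 40 bp from the center of the site, and 4 of the 10 were within 25 bp, whereas over all sites the median was 19.5 bp and 60.4% were within 25 bp. At least 1 GGTCA half-site was present in 18 sites (85.7%), as in 84.8% of all sites and 26.5% of windows.

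The site with the closest ERE was not the strongest. Bmpr1a site 1, with the perfect ERE, had a mean fold of 5.12, and Bmpr1b site 1, whose ERE has 2 mismatches, had a mean fold of 29.5.

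The other motifs were searched without mismatch on both strands. NR5A (CCAAGGTCA, or the same letters with T as the first base), the motif of the nuclear receptors SF-1 and LRH-1, was in 2 sites, Smad3 site 1 and Tgfbr3 site 4 (9.52%; 7.15% of all sites and 0.693% of windows). AP-1 (TGAGTCA or its reverse complement) was in 2, Bmpr1a site 1 and Tgfbr1 site 1 (6.65% of all sites and 3.11% of windows). GATA (NGATAA, with A or T as the first base) was in 7 (33.3%; 29.7% of all sites and 24.1% of windows), and FOXO (TGTTTAC) was in 1, Tgfbr3 site 2 (4.73% of all sites and 2.98% of windows). With 21 sites, each of these shares rests on few sites.

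**Figure D5:**
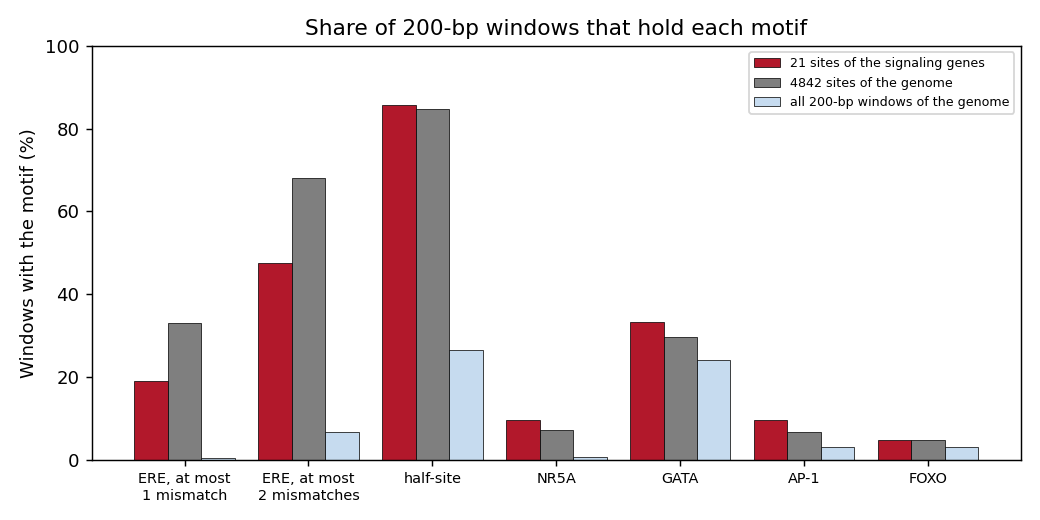
Percentage of 200-bp windows that hold each motif, for the 21 sites of the signaling genes (red), all 4842 sites (gray) and all 200-bp windows of the genome (light blue). For the ERE with at most 2 mismatches the bars stand at 47.6%, 68.1% and 6.68%, and for the half-site at 85.7%, 84.8% and 26.5%.

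Of 48 other genes of the pathway, 21 had a site within 50 kb (43.8%, beside 27.5% of protein-coding genes), with 34 sites in all. By role, these were 5 of 15 ligands, 3 of 7 receptors, 3 of 6 Smads, 7 of 16 regulators and 3 of 4 targets. The 5 with the highest mean fold were Inhbb, Id1, Inha, Id3 and Tgfb2. Inhbb and Inha encode inhibin subunits, Id1 and Id3 are targets of BMP signaling, and Tgfb2 is a ligand of Tgfbr2 and Tgfbr3. At the strongest site near Inhbb, signal was 21.3, 28.6 and 28.5 by ChIP replicate, against 0.643 and 0.802 for input, a mean fold of 36.1 ± 5.76 (SD, n = 3). The strongest site near Inha had a mean fold of 28.1 ± 4.17 (SD, n = 3), with Stk11ip as the nearest coding start. Near Id1 the mean fold was 30.8 ± 2.97 (SD, n = 3), with Mcts2 as the nearest coding start, near Id3 it was 26.5 ± 1.92 and near Tgfb2 it was 17.9 ± 4.91. Bmpr1b site 1 thus had a fold in the range of these sites, and Amh site 1 lay between those of Id3 and Tgfb2. Of the 48 promoters, 0 passed the limma test at an adjusted p under 0.05, while at an unadjusted p under 0.05, 2 were higher and 2 were lower, against 1.37% and 11.0% of all promoters.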

How the data were processed

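ERβ ChIP-seq was measured in ovaries of C57BL/6J mice (3 ChIP libraries and 2 inputs). Groups and replicate numbers came from the sample titles. Per the methods of the study and the submitters' processing notes, the authors aligned reads with STAR to GRCm38 (mm10), kept uniquely mapped reads and used HOMER. Each deposited file is a track of signal (coverage) of 1 library, which the authors scaled to a common total and averaged over segments with a median length of 269 to 520 bp, so single reads and depth cannot be recovered. Signal was averaged in 200-bp windows at 10-bp steps on the autosomes and chromosome X (99.7% to 99.8% of signal), and the input was set to at least its genome mean. Passing windows less than 200 bp apart were 1 site, centered on the window with the highest mean fold, and introns were numbered in the longest coding transcript. Sequence came from RefSeq's GRCm38.p6 and annotation from GENCODE vM21.

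Windows of 1 kb and promoters with a mean signal of at least 0.1 were tested with limma 3.58.1 (eBayes, trend on) after log2(signal + 0.5) transformation, which understates changes at low signal. The site caller and the fits were run on simulated data with independent noise, which checks the code and not how well it suits these tracks. The exact permutation test of 3 against 2 libraries cannot give a p below 0.1, so no single value was tested that way. The 10 genes, the pathway list, the motifs and the tests were chosen with earlier results of these data known. All 10 genes were named; of the pathway list, the 5 with the highest mean fold at a site and any whose promoter passed were named; sequences were printed for the strongest site of each gene with an ERE of at most 1 mismatch and for the strongest site of all. A sequence outside this rule is not reported here. Alternatives were other thresholds, windows, flanks, motif limits, pseudocounts and filters, a GC correction, leaving out each library, and a replicate block. The 2 knockout ChIP samples were not analysed here.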

Additional observations from a re-analysis of the deposited data

How the results depend on the processing

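Tgfbr2 and Amhr2 had no site, and Tgfbr1, Tgfbr3, Bmpr1b, Bmpr2 and Smad3 had at least 1, in every setting but the criteria that join a local background with a height threshold. Those criteria left 0 sites and 0 genes here, and 1 site in the whole genome. With the local background alone, chosen after seeing the data, 20 sites near 7 genes remained. At 6-fold, 13 sites were left. Leaving out 1 library gave 16 to 28 sites, 6 to 8 genes, 43.8% to 50% of sites with an ERE, and 16 to 27 genes of the pathway list. The share with an ERE was 19.0% with at most 1 mismatch and 76.2% with at most 3. The median held-out fold over the 3 replicates was 7.83, it was 5.76 and 10.2 when the calling fold was 3 and 6, and 6.94 to 7.01 with 1 input.

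Of the 1-kb windows, 13 were higher in ChIP as reported, 8 to 14 with 1 library left out (8 without ChIP replicate 2 and 8 without Input replicate 2), and 2 without the filter on low values. The windows of Bmpr1b site 1 and Amh site 2 were called in all 11 settings of the same windows. The count of promoters higher in ChIP, 1 as reported, was 0 with a pseudocount of 1, 0 without the filter, 0 with the track-name group as a term, 0 with 500 bp on each side of the start, and 0 to 1 with 1 library left out, the promoter of Amh being the one lost.

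The correlations of the deviations of like-numbered ChIP and input libraries were 0.036 and -0.011 over windows. Over promoters they were -0.099 and 0.023. With 2 inputs, the values of one input mirror those of the other, so these correlations cannot decide whether the replicate numbers pair the samples. With the replicate block, in which ChIP replicate 3 has no partner and drops out of the contrast, 16 windows were higher and 9 lower, the 13 called windows among the former, and 1 promoter was higher. Other promoters, none of which passed the test, changed sign. With 500 bp on each side of the start, the log2 difference was 0.27 for Tgfbr1, 0.14 for Tgfbr3, 0.0077 for Bmpr2 and 0.11 for Amhr2, and after removal of GC content it was 0.041 for Tgfbr3, 0.011 for Bmpr2 and 0.051 for Smad4. With 1 library left out, it ran from -0.21 to 0.030 for Tgfbr1, from -0.12 to 0.065 for Tgfbr3, from -0.36 to 0.039 for Bmpr1b, from -0.15 to 0.054 for Bmpr2, from -0.35 to 0.063 for Amhr2 and from -0.22 to 0.14 for Smad4. The causes of these changes were not tested. The tracks do not give depth, so a site absent here may lie below what these libraries could show.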
